A study of Sus scrofa with 12 samples.

Results

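The genes that make, break down and respond to cyclic AMP were compared between ovaries of ES and NES gilts, young female pigs (Sus scrofa). The set holds adenylyl cyclases, cyclic nucleotide phosphodiesterases, subunits of protein kinase A (PKA), A-kinase anchoring proteins (AKAPs), the exchange factors RAPGEF3 and RAPGEF4, the transcription factors CREB1 and CREM, and RGS proteins. Members were chosen by symbol. Of 29150 loci in the deposited table, 105 carried a matching symbol, and these stood for 60 genes. Each gene was represented by its locus with the highest mean count, and 46 of the 60 genes had a mean FPKM (fragments scaled to the length of the locus and the size of the library) of at least 0.5 and were kept as members. The rule used levels over all 12 libraries and no difference between the groups.

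The ES group held 6 gilts that had shown a pair of estrus cycles in a row and were killed at the next estrus. The NES group held 6 full sisters of those gilts in which no estrus had been recorded. All 12 animals came from a French Yorkshire line, the labels name no engineered genotype or treatment, and estrus was watched from 165 days of age, while the age at killing is not given in the sources used here. RNA was taken from the left ovary as a whole, with 1 library per gilt, so granulosa, theca, luteal, stromal, vascular and immune cells all contribute to each value, and fewer cells of a type cannot be told apart from less RNA per cell. In these sisters the estrous stage and the recorded estrus differ together and cannot be told apart.

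Cyclic AMP is made from ATP by adenylyl cyclases when a receptor activates the G protein Gs, and it is broken down by phosphodiesterases. It releases the catalytic subunits of PKA from their regulatory subunits, which AKAPs hold at particular places in the cell, and it also opens the Rap exchange factors known as EPACs. In the ovary this pathway carries the signals of FSH and LH into follicle and luteal cells, and PKA acts on genes such as those of steroid synthesis through CREB-family factors. RGS proteins speed up the GTPase activity of G protein alpha subunits and so shorten receptor signals.

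The libraries held 58140547 to 68961955 counts. The level of a gene in a library is its count after scaling by depth and TMM factors (CPM), and levels are compared between genes only as FPKM. Markers of ovarian cell types showed that some ES libraries stood apart. The summed FPKM of the 8 of 10 macrophage markers that were measured was 436 in ES3. It was 17.6 to 26.99 in the other ES libraries and 12.8 to 32.7 in NES. LYZ alone reached 256 FPKM in ES, so the sum in ES3 is mostly LYZ. All 8 had a log2 difference above 0, but CD163 reached only 3.02 FPKM in ES, against 2.99 in NES. The summed FPKM of 12 of 14 granulosa markers ran from 55.3 in ES3 to 1482 in ES1 within ES, and from 235 to 819.7 in NES. INHA alone reached 1193 FPKM in ES, so this sum mostly follows INHA where it is high. The list was mixed, with 7 markers above 0 and 5 below in log2 difference. FST and IHH lay below all NES libraries in all 6 ES libraries. The 7 of 7 theca markers summed to 12.1 FPKM in ES3, 31.7 in ES4, 139.8 in ES5 and 223 to 274 in ES1, ES2 and ES6, against 104 to 181 in NES, so in this sum ES3 and ES4 lay below all NES libraries and 3 ES libraries above them. CYP17A1 and INSL3 had the highest FPKM of the 7. PTCH1, HHIP and GLI1 of the same list were called lower in ES (log2 -1.86, -2.37 and -1.94), with all 6 ES libraries below all NES libraries. Of the 7, 2 had a log2 difference above 0 and 5 below. The 4 of 8 luteal markers measured summed to 36.4 to 397 FPKM in ES, highest in ES1, and to 22.5 to 40.7 in NES, and 5 of 9 markers of surface epithelium and cilia to 60.4 in ES6 and at most 4.199 elsewhere. In these lists FOXJ1 and CLDN4, of epithelium and cilia, and CD4, of lymphocytes, were at 0 in some library. ES3 and ES6 are therefore left out in an alternative fit, and where leaving out 1 library moved the log2 difference given for a gene picked by the selection rule, or for one chosen after its values were seen, by over 1.5 times, the value without it is given.

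Regulatory subunits of PKA were the most abundant members. PRKAR2B, the type II beta regulatory subunit, had a mean of 19.6 FPKM over the 12 libraries, followed by PRKAR1A, the type I alpha subunit, with 16.4, the cyclase ADCY3 with 12.4, RGS2 with 11.4 and the cyclase ADCY6 with 11.01. The lowest member, RGS10, lay just inside the minimum at 0.584 FPKM. It was kept only through ES3, at 2.18 FPKM, against 0.279 to 0.447 in the other ES libraries and a mean of 0.495 in NES. Its place in the counts of members above 0 therefore rests on that library. The cGMP phosphodiesterase PDE9A lay just outside the minimum at 0.476 FPKM. The other 13 genes below the minimum were ADCY1, ADCY8, ADCY10, AKAP4, PDE1C, PDE6A, PDE6B, PDE6C, RGS8, RGS13, RGS14, RGS17 and RGS18, with mean FPKM from 0.00562 for PDE6B to 0.332 for RGS17. The photoreceptor subunits PDE6A, PDE6B and PDE6C and the sperm tail anchor AKAP4 were thus all near 0 in these ovaries.

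**Figure D1:**
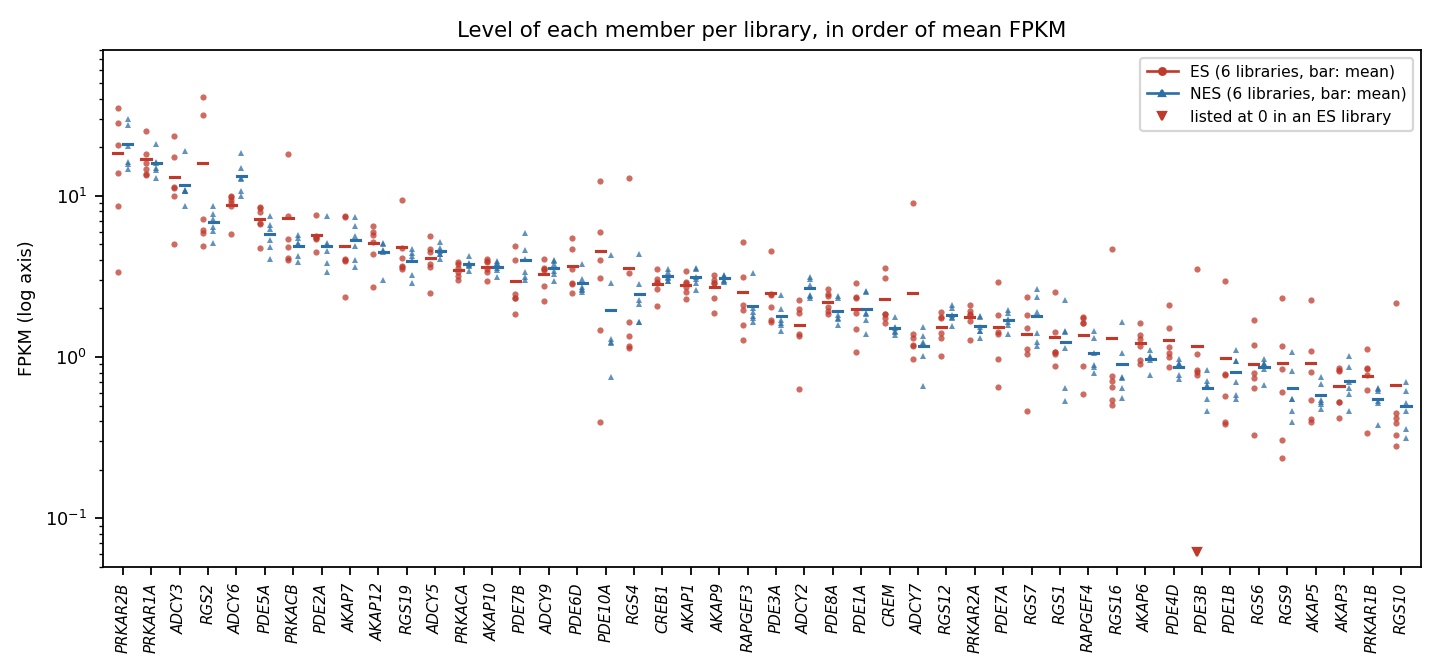
FPKM (log axis) of the 46 members in each library, in order of mean level, with ES as red circles, NES as blue triangles and bars for group means. PRKAR2B and PRKAR1A lead and RGS10 is lowest, and single ES libraries lie far above the rest for RGS2, PDE10A, RGS4, ADCY7 and RGS16, while 1 ES library is listed at 0 for PDE3B.

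The comparison of ES with NES asks how this pathway differs between ovaries at estrus and ovaries of sisters without recorded estrus. None of the 46 members passed the test (edgeR quasi-likelihood F test on counts, Benjamini-Hochberg adjusted p under 0.05 over 20421 loci), where 0.945% of all loci did, with 0.152% higher and 0.793% lower in ES. The smallest adjusted p among the members was 0.147, for CREM. DESeq2 also called 0 of the 46, with a smallest adjusted p of 0.0505 for CREM and no adjusted p for 2 of them, where 5.22% of all loci passed, and limma on log2(FPKM + 0.5) called 0, where 1.65% passed. At an unadjusted edgeR p under 0.05 there were 10 of 46 members (21.7%), 8 higher and 2 lower in ES, against 16.3% of all loci, with 9.5% higher and 6.79% lower. The 8 were ADCY7, AKAP6, CREM, PDE3A, PDE4D, PDE5A, PRKAR1B and RGS2, and the 2 were ADCY2 and ADCY6.

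The fitted log2 differences leaned above 0. They were above 0 in 31 of 46 members (67.4%), against 56.2% of all loci, and their median was 0.29, against 0.043 over all loci. With limma on log2(FPKM + 0.5) the median was 0.096, against -0.051 over all loci. The median CPM was higher in ES in 27 of 46 members, against 52.2% of all loci. The median over the 46 members of log2(CPM + 0.5) minus the NES mean was only 0.021 to 0.12 in each ES library taken singly. No member had ES and NES values without overlap, where 1.42% of all loci did (0.509% with ES above NES and 0.906% with ES below). The log2 difference was past 2-fold in 3 members (PDE10A, RGS2 and ADCY7) and under 1.5-fold in 34.

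**Figure D2:**
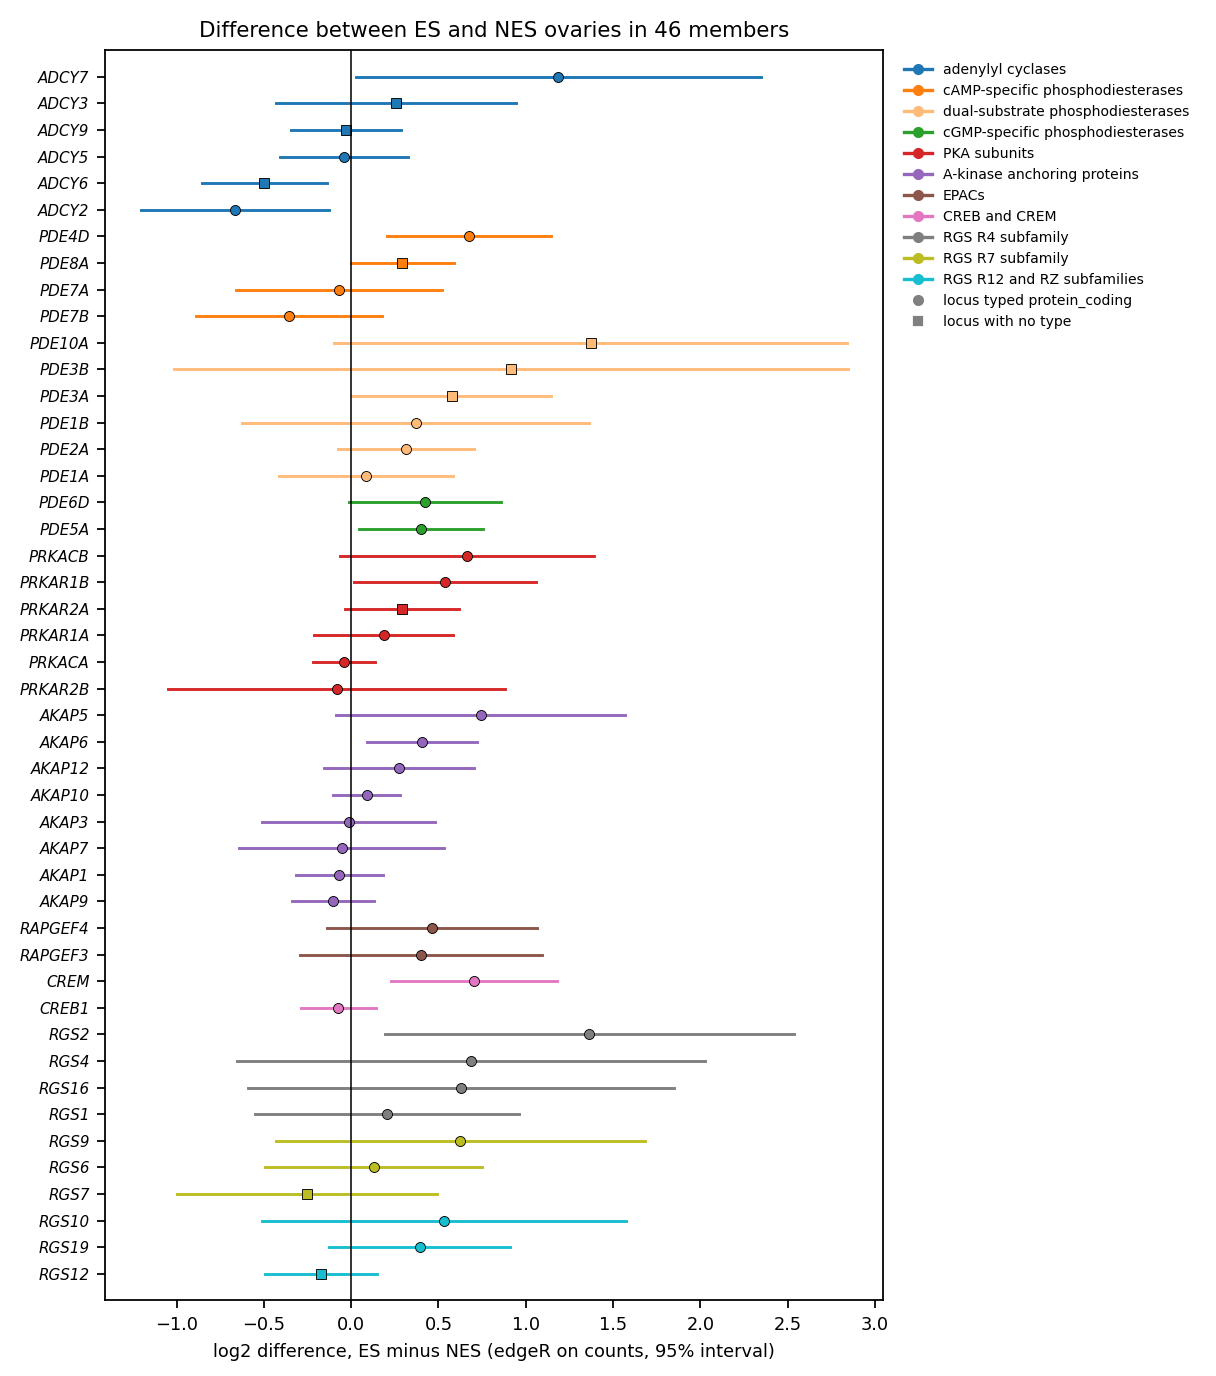
Log2 difference, ES minus NES, of the 46 members with its 95% interval, by role, from the edgeR fit over all loci; squares mark loci to which the table gives no type. The widest intervals belong to PDE3B, PDE10A and RGS4, and none of the members passed after adjustment.

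Among the 6 adenylyl cyclases, 2 had a log2 difference above 0 and 4 below, with a median of -0.035. ADCY6 (MSTRG.16700, chromosome 5, 14816278 to 14855323, minus strand), a cyclase that calcium inhibits, measured 85.8 to 144 CPM in ES (median 140.3) and 137 to 252 CPM in NES (median 177). ES3 was lowest, the other 5 ES libraries lay at 129 to 144 CPM around the lowest NES library, and ES3 and ES5 lay below all NES libraries. Its log2 difference was -0.50 ± 0.17 (SE, n = 6 each; 95% interval -0.85 to -0.14), with an edgeR adjusted p of 0.171, and -0.40 without ES3. ADCY2 (MSTRG.9995, chromosome 16, 74305686 to 74730478, minus strand), a cyclase that G protein beta-gamma subunits stimulate, measured 4.798 to 16.7 CPM in ES (median 12.3) and 16.6 to 22.1 CPM in NES (median 18.9). In 5 of 6 ES libraries it lay below all NES libraries, and ES1 exceeded only the lowest NES library. On the log2 scale it differed by -0.67 ± 0.25 (95% interval -1.21 to -0.13; edgeR adjusted p = 0.217), and -0.51 without ES3, which had the lowest value.

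ADCY3 (MSTRG.14900, chromosome 3, 113873729 to 113985479, plus strand), best known from the cilia of olfactory neurons, was the most abundant cyclase. It measured 64.1 to 302 CPM in ES (median 140.5) and 105 to 228 CPM in NES (median 131), with ES1 and ES4 highest and ES3 lowest of all libraries, and NES6 stood alone at the top of NES. The log2 difference of 0.26 ± 0.32 (edgeR adjusted p = 0.733) was 0.015 without ES4, 0.11 without ES1, 0.42 without ES3 and 0.44 without NES6. ADCY7, a cyclase abundant in blood and immune cells, was not named by the selection rule and was chosen after its values were seen, as were RGS4, RGS10, PDE1B and PDE3B below. It measured 102 CPM in ES3, and the other 11 libraries lay at 7.35 to 15.99 CPM. The log2 difference of 1.19 ± 0.54 (edgeR adjusted p = 0.296) was 0.14 without ES3. ES3 was also the library with the highest summed FPKM of macrophage markers, led by LYZ, and the part of these cells in the result was not tested. ADCY5 and ADCY9, the remaining cyclases, had log2 differences of -0.041 and -0.029.

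Of the 12 members with a PDE symbol, 10 had a log2 difference above 0, against 56.2% of all loci. The median of the 12 was 0.38, against 0.043 over all loci, and 0 passed. One of the 10, PDE1B, lay below 0 without ES3, and another, PDE6D, is named for such an enzyme but carries prenylated proteins. Among the 4 cAMP-specific enzymes, PDE4D (MSTRG.9705, chromosome 16, 37897302 to 38182951, minus strand), a target of rolipram, measured 10.7 to 28.6 CPM in ES (median 13.4) and 8.79 to 11.04 CPM in NES (median 10.3). In 5 of 6 ES libraries it exceeded all NES libraries, and the remaining one, ES4, lay inside the NES range. ES1 was highest and ES6 next. The fitted difference was 0.68 ± 0.22 in log2 (95% interval 0.20 to 1.15; edgeR adjusted p = 0.157), and 0.42 without ES1. This locus covers 18.9% of the RefSeq gene, and a neighbouring locus that joins PDE4D to an unnamed gene differed by 0.49 ± 0.18 (edgeR adjusted p = 0.207).

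PDE8A, a high-affinity cAMP phosphodiesterase, measured 46.8 to 68.9 CPM in ES (median 58.2) and 40.1 to 57.5 CPM in NES (median 43.6), with 3 ES libraries above all NES libraries. Its log2 difference was 0.29 ± 0.14 (edgeR adjusted p = 0.311). PDE7B, the cAMP phosphodiesterase with the highest FPKM of the 4 at 3.49, went the other way, with 301 to 765 CPM in ES (median 409) and 452 to 942 CPM in NES (median 576). In 4 of 6 ES libraries it lay below all NES libraries, ES2 and ES5 lay inside the NES range and NES5 was highest of all, and the log2 difference was -0.36 ± 0.25 (edgeR adjusted p = 0.503), and -0.20 without NES5. PDE7A, its relative, differed by -0.068.

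The 6 enzymes that accept both cAMP and cGMP all had log2 differences above 0, from 0.086 for PDE1A to 1.37 for PDE10A. PDE3A (MSTRG.17188, chromosome 5, 52611826 to 52690619, plus strand), the cGMP-inhibited enzyme that in mouse oocytes lowers cAMP when meiosis resumes, measured 168 to 514 CPM in ES (median 224) and 140.1 to 241 CPM in NES (median 159). ES1 stood alone at the top, ES2 and ES4 also exceeded all NES libraries, and the other 3 ES libraries lay inside the NES range. The log2 difference was 0.58 ± 0.26 (95% interval 0.0073 to 1.15, edgeR adjusted p = 0.301), and 0.25 without ES1. This PDE3A locus has no type and covers 24.3% of the RefSeq gene, so its CPM may not be the level of the enzyme's mRNA. The protein_coding PDE3A locus, on the other strand, held 18.1 to 43.7 CPM in ES and 14.2 to 23.1 CPM in NES. PDE10A (MSTRG.36, chromosome 1, 2827786 to 2883496, minus strand), known from striatal neurons, had the widest range of the 6 apart from PDE3B, with 28.5 to 980.1 CPM in ES (median 253) and 49.3 to 286 CPM in NES (median 87.9). ES1 was highest and ES3 lowest of the 12 libraries. The difference of 1.37 ± 0.68 (edgeR adjusted p = 0.3402) was 0.68 without ES1 and 1.62 without ES3. This PDE10A locus has no type and overlaps 0% of the RefSeq gene. The summed FPKM of the granulosa markers, led by INHA, was also highest in ES1 and lowest in ES3, and the part of these cells in the result was not tested.

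PDE2A, which cGMP stimulates, had the highest FPKM of the 6 at 5.29. It measured 48.6 to 81.3 CPM in ES (median 59.4) and 35.3 to 76.1 CPM in NES (median 47.7), with ES2 above all NES libraries and NES6 next, and its log2 difference was 0.32 ± 0.18 (edgeR adjusted p = 0.411), and 0.48 without NES6. PDE1B, stimulated by calcium and calmodulin, measured 36.5 CPM in ES3 and 4.64 to 12.8 CPM in the other 11 libraries. Its log2 difference of 0.37 ± 0.46 was -0.38 without ES3. PDE3B, a relative of PDE3A known from fat and liver cells, was listed at 0 in ES1, at 236 CPM in ES3 and at 30.5 to 67.8 CPM in the other 10 libraries. Its log2 difference of 0.91 ± 0.89 was 0.15 without ES3. The locus listed at 0 has no strand or type. A second PDE3B locus typed protein_coding (MSTRG.11941) held 14.2 to 84.5 CPM in ES and 13.4 to 19.5 CPM in NES, with no library at 0 and a log2 difference of 0.97 ± 0.37 (edgeR adjusted p = 0.229). In the whole table, 27 tested loci were at 0 in a single library and had at least 100 counts in each of the other 11.

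Among the cGMP-related members, PDE5A, the sildenafil target of smooth muscle, measured 53.3 to 87.1 CPM in ES (median 73.9) and 39.2 to 71.5 CPM in NES (median 55.4). ES4, ES5 and ES6 lay above all NES libraries, and the log2 difference was 0.40 ± 0.16 (95% interval 0.045 to 0.76; edgeR adjusted p = 0.253). The summed FPKM of 11 smooth muscle and pericyte markers was 193 to 413 in ES and 141 to 295 in NES, and their part in this value was not tested. PDE6D, which carries prenylated proteins and was first found with the photoreceptor enzyme, measured 4.05 to 8.08 CPM in ES (median 4.71) and 3.55 to 5.28 CPM in NES (median 3.86) and differed by 0.42 ± 0.20 (edgeR adjusted p = 0.317), and by 0.27 without ES3. ES3 and ES4 were above all NES libraries, and NES6 stood at the top of NES.

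Of the 6 PKA subunits, 4 had a log2 difference above 0, and 0 passed. PRKACB (MSTRG.19828, chromosome 6, 129519965 to 129635777, minus strand), a catalytic subunit, measured 34.2 to 150.0 CPM in ES (median 41.5) and 30.6 to 46.3 CPM in NES (median 38.9). ES4 stood alone and ES3 came next, while the other 4 ES libraries lay inside the NES range. The log2 difference of 0.66 ± 0.34 (edgeR adjusted p = 0.353) was 0.16 without ES4. PRKAR1B, a type I regulatory subunit best known from neurons, measured 2.91 to 9.53 CPM in ES (median 6.74) and 3.01 to 5.33 CPM in NES (median 4.603), at 0.655 FPKM one of the lowest members. In 5 of 6 ES libraries it exceeded all NES libraries, and ES4 was the lowest of all 12. Its log2 difference came to 0.54 ± 0.24 (95% interval 0.017 to 1.06; edgeR adjusted p = 0.291).

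PRKAR2B (MSTRG.24013, chromosome 9, 106850990 to 106957515, plus strand), the regulatory subunit that FSH induces in rat granulosa cells, measured 44.5 to 455 CPM in ES (median 223) and 177 to 366 CPM in NES (median 233). ES6 was highest and ES3 lowest of all libraries, and all NES libraries lay inside the ES range. The log2 difference was -0.082 ± 0.45, with a 95% interval of -1.05 to 0.88 (edgeR adjusted p = 0.9504), and it ran from -0.35 to 0.14 with 1 library left out, above 0 without ES3, ES4, NES1 or NES5. The summed FPKM of the granulosa markers was lowest in ES3 too, and the part of these cells was not tested. PRKAR1A, PRKAR2A and the catalytic subunit PRKACA differed by 0.19, 0.29 and -0.041 on the log2 scale.

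The 8 anchoring proteins divided evenly, 4 above and 4 below 0, with a median of 0.038. AKAP6, which ties PKA to the nuclear envelope in heart muscle, measured 14.1 to 23.7 CPM in ES (median 17.9) and 10.5 to 15.97 CPM in NES (median 13.6). In 4 ES libraries it lay above all NES libraries, and the log2 difference was 0.41 ± 0.15 (95% interval 0.089 to 0.72; edgeR adjusted p = 0.204). AKAP5, which holds PKA and calcineurin at the plasma membrane, measured 2.36 to 12.8 CPM in ES (median 3.77) and 2.63 to 3.92 CPM in NES (median 2.88). ES3 stood alone, ES6 was next, and ES4 and ES1 were the lowest of all 12 libraries. The log2 difference of 0.74 ± 0.38 (edgeR adjusted p = 0.359) was 0.24 without ES3 and -0.0084 without ES3 and ES6. AKAP7, the anchor with the highest FPKM at 5.101, measured 19.9 to 61.4 CPM in ES (median 35.9) and 28.1 to 58.95 CPM in NES (median 41.6) and differed by -0.054 ± 0.27, or by -0.20 to 0.082 with 1 library left out. AKAP1 of the mitochondrial membrane, AKAP3 of the sperm tail, AKAP9 of the centrosome, AKAP10 and AKAP12 had log2 differences from -0.10 for AKAP9 to 0.28 for AKAP12.

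Both EPAC genes lay above 0. RAPGEF4 (EPAC2) measured 5.29 to 17.2 CPM in ES (median 14.4) and 6.97 to 12.2 CPM in NES (median 8.32), with 4 ES libraries above all NES libraries and ES4 the lowest of the 12, and differed by 0.46 ± 0.28 (edgeR adjusted p = 0.436). RAPGEF3 (EPAC1) measured 19.2 to 77.95 CPM in ES (median 29.9) and 24.3 to 46.8 CPM in NES (median 26.2), with ES2 and ES1 highest and ES3 lowest, and NES6 alone at the top of NES. Its log2 difference was 0.40 ± 0.32 (edgeR adjusted p = 0.571), and 0.076 without ES2.

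CREM (MSTRG.3013, chromosome 10, 57829543 to 57895883, plus strand), whose cAMP-induced product ICER represses CREB target genes, had the smallest p of all members. It measured 17.5 to 42.5 CPM in ES (median 19.4) and 14.1 to 17.99 CPM in NES (median 15.2). In 5 of 6 ES libraries it exceeded all NES libraries, and ES3 alone lay inside the NES range. ES1 and ES4 were far above the other ES libraries. The log2 difference was 0.70 ± 0.22 (95% interval 0.23 to 1.18; unadjusted p = 0.00701, edgeR adjusted p = 0.147), and 0.48 without ES1 or 0.60 without ES4. CREB1, the factor that PKA phosphorylates, measured 47.05 to 69.7 CPM in ES (median 58.96) and 58.1 to 67.3 CPM in NES (median 61.1) and differed by -0.074 ± 0.099, with an interval of -0.29 to 0.14 (edgeR adjusted p = 0.758), and by -0.025 without ES1 and -0.13 without ES5.

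Of the 10 RGS genes, 8 had a log2 difference above 0, with a median of 0.46, yet only 3 had a higher median CPM in ES. RGS2 (MSTRG.2347, chromosome 10, 933790 to 940625, minus strand), which acts on Gq and is induced by cAMP in several cell types, measured 37.4 to 316 CPM in ES (median 50.5) and 37.7 to 62.7 CPM in NES (median 49.4). ES4 and ES1 held 316 and 271 CPM, while the other 4 ES libraries lay at 37.4 to 53.8 CPM, within the range of NES but for ES6, just below it. The log2 difference of 1.36 ± 0.54 (95% interval 0.19 to 2.53; edgeR adjusted p = 0.239) was 0.87 without ES4 and 0.99 without ES1. The pair of libraries high for RGS2 was also the pair highest for CREM. RGS4, of the same R4 subfamily, measured 125 CPM in ES1 and 9.798 to 28.2 CPM in the other ES libraries, against 13.7 to 37.2 CPM in NES, and its difference of 0.69 ± 0.62 turned to -0.48 without ES1.

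RGS16, an R4 member that acts on Gi and Gq, measured 1.598 to 14.7 CPM in ES (median 2.203) and 1.65 to 4.96 CPM in NES (median 2.23). ES3 stood alone, and without it the log2 difference of 0.63 ± 0.56 turned to -0.41. RGS10, an R12 member known from microglia, and RGS19, of the RZ subfamily, were highest in ES3 as well. RGS10 measured 18.1 CPM in ES3 and 2.303 to 5.35 CPM in the other 11 libraries, and its difference of 0.53 ± 0.48 turned to -0.32 without ES3. RGS19 measured 37.6 to 102 CPM in ES (median 43.6) and 29.1 to 47.98 CPM in NES (median 42.1), and its difference of 0.39 ± 0.24 (edgeR adjusted p = 0.446) was 0.091 without ES3. ES3 held the highest summed FPKM of macrophage markers, and the part of these cells in the 3 values was not tested.

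The R7 subfamily works in complex with the G protein subunit GNB5. RGS9, known from photoreceptors and striatum, measured 2.68 to 25.9 CPM in ES (median 8.01) and 4.21 to 11.07 CPM in NES (median 6.002). ES4 and ES1 were the highest and ES3 and ES6 the lowest of the 12 libraries. The log2 difference of 0.62 ± 0.49 (edgeR adjusted p = 0.561) was 0.11 without ES4. RGS7 measured 27.3 to 153 CPM in ES (median 75.6) and 65.03 to 143 CPM in NES (median 91.3) and differed by -0.25 ± 0.34 (edgeR adjusted p = 0.763), with the lowest value in ES3. Without ES3 the difference was -0.073, without ES1 -0.53, without NES1 -0.12 and without NES5 -0.15. RGS12, of the R12 and not the R7 subfamily, measured 9.28 to 17.5 CPM in ES (median 14.5) and 13.9 to 18.4 CPM in NES (median 15.7). It lay below all NES libraries in 3 ES libraries, and differed by -0.17 ± 0.15 (edgeR adjusted p = 0.598), and by -0.085 without ES3. RGS1, of the R4 subfamily, and RGS6, of the R7 subfamily, differed by 0.21 and 0.13.

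**Figure D3:**
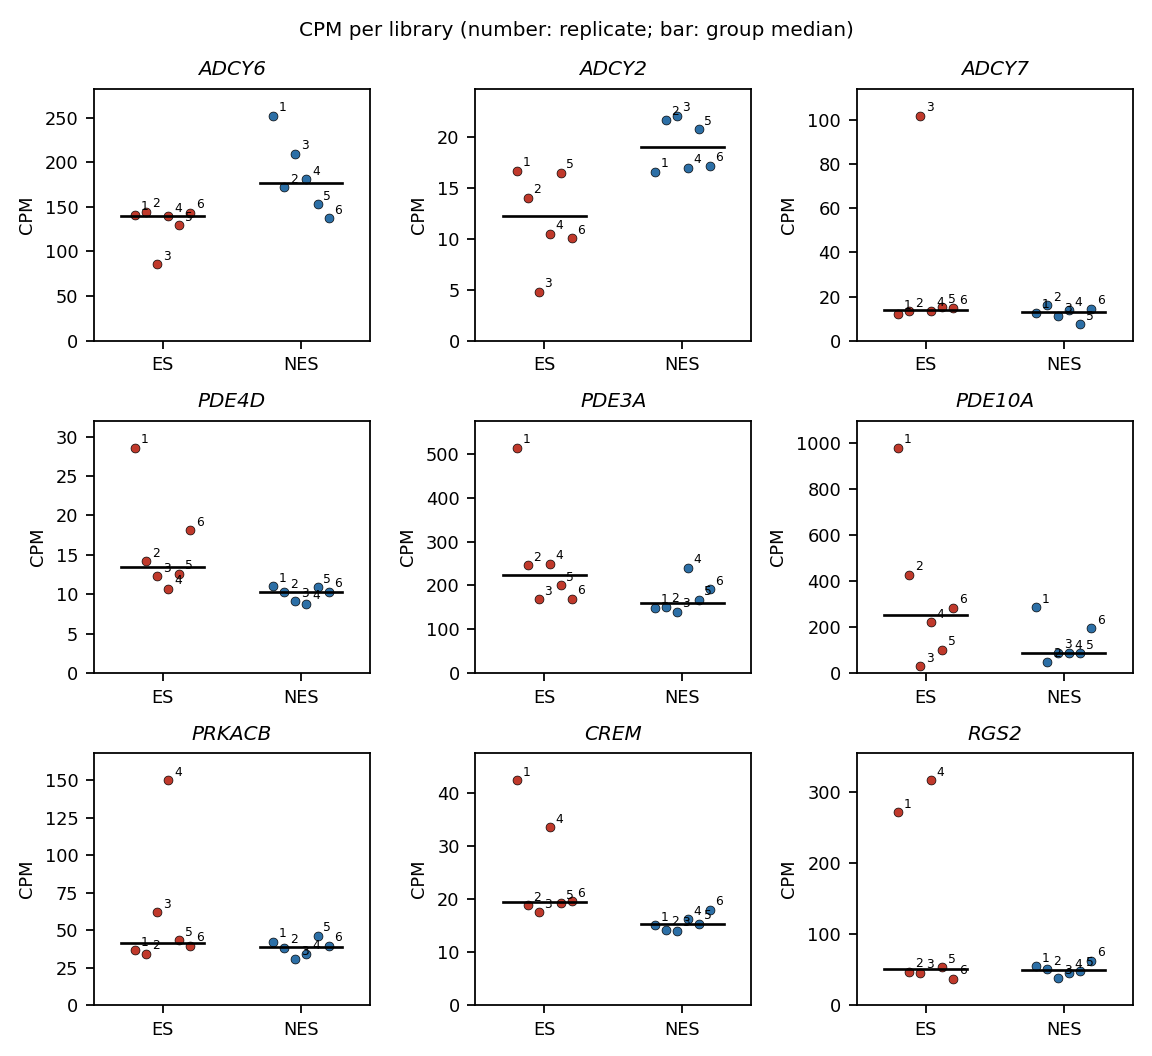
CPM per library of 9 members (y axis), ES at the left in red and NES at the right in blue; the number beside a point is the replicate and the bar is the group median. ADCY6 and ADCY2 sit low in ES, PDE4D and CREM exceed all NES libraries in 5 of 6 ES libraries, and ES3 alone carries ADCY7, ES4 alone PRKACB, and ES1 with ES4 RGS2.

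Individual ES libraries set the extremes of the pathway. An ES library held the highest value of the 12 in 39 of 46 members (84.8%), against 64.6% of all loci, and the lowest value in 32 members, against 62.8% of all loci. ES3 was highest in 12 members (26.1%, against 19.7% of all loci) and lowest in 15. The 12 were ADCY7, AKAP5, AKAP6, AKAP10, PDE1B, PDE3B, PDE6D, PDE7A, PRKAR1B, RGS10, RGS16 and RGS19. The 15 included the cyclases ADCY2, ADCY3, ADCY5, ADCY6 and ADCY9 and the subunit PRKAR2B. ES1 was highest in 9 members, among them PDE3A, PDE4D, PDE10A, CREM and RGS4, and ES4 in 6, among them PRKACB, RGS2, RGS9, ADCY3 and PDE5A. The SD of log2(CPM + 0.5) was larger in ES in 41 of 46 members (89.1%), against 74.6% of all loci.

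**Figure D4:**
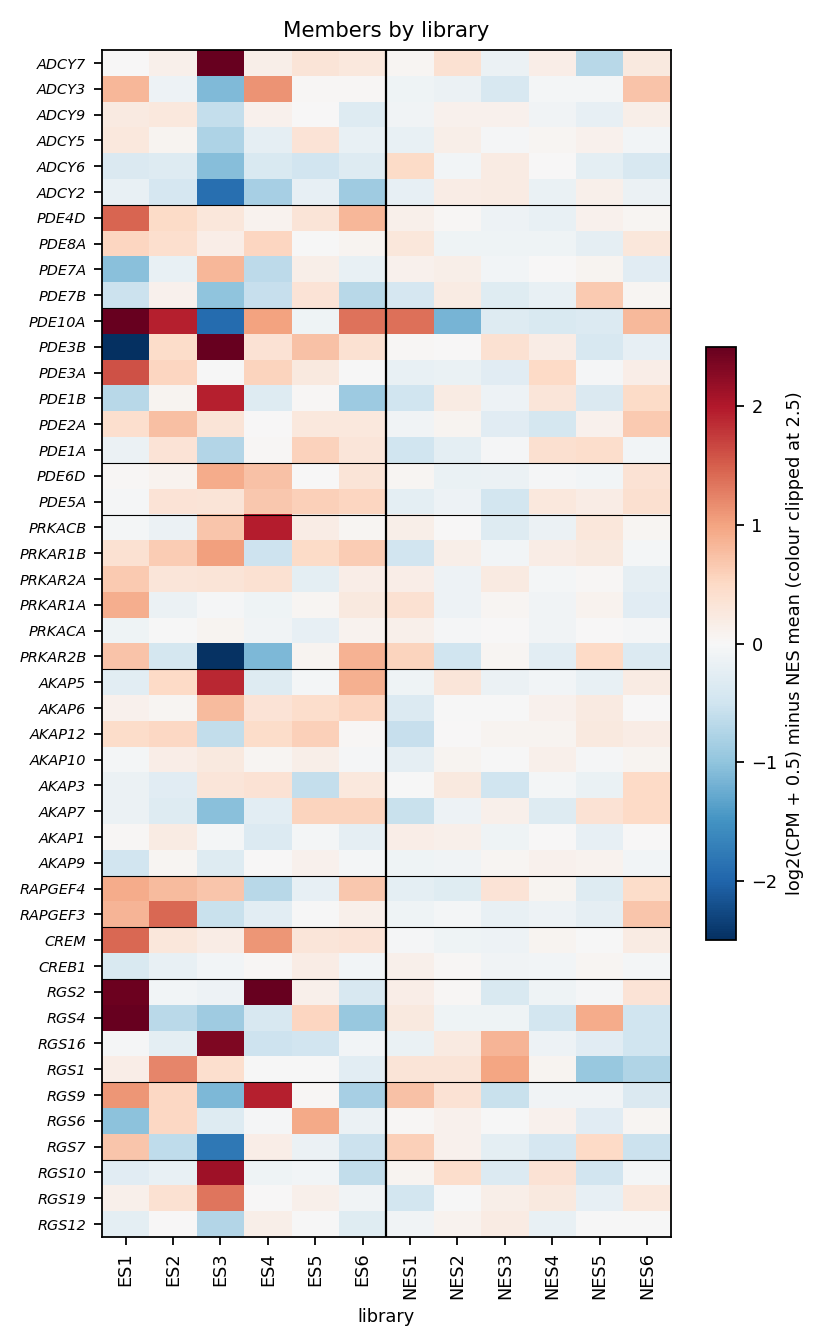
Log2(CPM + 0.5) of each member minus its NES mean, per library, ES columns at the left and NES at the right, with members grouped by role; the colour stops at 2.5. ES3 is dark red for ADCY7, PDE3B, RGS16 and RGS10 and dark blue for PRKAR2B, and the dark cells of ES1 and ES4 include RGS2.

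Several members rest on loci that need care. Of the 46, 36 were typed protein_coding in the table and 10 had no type (ADCY3, ADCY6, ADCY9, PDE3A, PDE3B, PDE8A, PDE10A, PRKAR2A, RGS7 and RGS12). For ADCY9, PDE3A, PDE3B, PDE10A and RGS7 another locus of the same symbol was typed protein_coding, and the member locus lay on the opposite strand or had none. The member loci of PDE8A, PRKAR2A and RGS12 also lay opposite to a protein_coding locus that joins their symbol to other genes. The strand setting of the counting is not given in the sources used here, so reads of a gene and of transcripts on the other strand may not have been told apart. All 46 members shared a chromosome with the RefSeq gene of their symbol on Sscrofa11.1, and 34 loci covered at least 80% of it. The PDE10A locus overlapped 0% of RefSeq PDE10A, the RGS12 locus 6.91% and the PRKAR2A locus 8.305% of their genes.

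The protein_coding loci gave much the same log2 differences where both existed, while the CPM of PDE3A and PDE10A were far lower there. PDE10A (MSTRG.37, chromosome 1, 2882387 to 3392619, plus strand) differed by 1.25 ± 0.52 at its protein_coding locus (edgeR adjusted p = 0.260), PDE3A (MSTRG.17186, chromosome 5, 52413637 to 52738934, minus strand) by 0.51 ± 0.21 (edgeR adjusted p = 0.258) and RGS7 (MSTRG.2407) by -0.15 ± 0.35. ADCY9 changed sign, with 0.098 ± 0.13 at its protein_coding locus (MSTRG.13961) and -0.029 ± 0.15 at the locus with the most counts. The loci of a symbol overlap or adjoin each other, so they are not independent measurements. Taking the protein_coding locus of each gene, a choice made after the data were seen, left 41 genes with a median log2 difference of 0.37, 0 called by edgeR and 11 at an unadjusted p under 0.05.

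**Figure D5:**
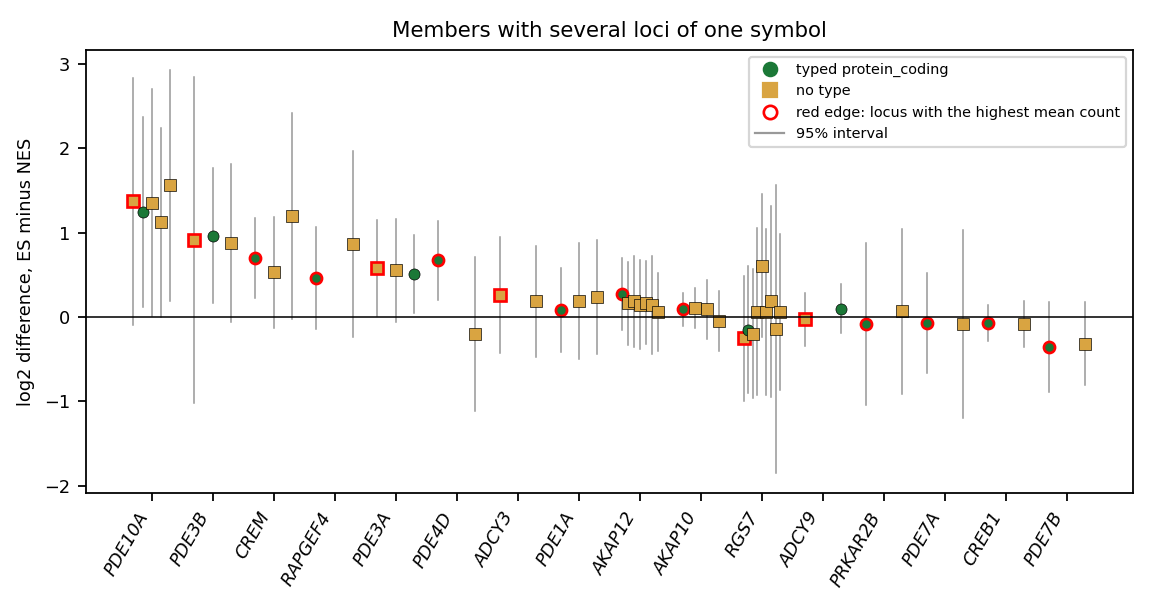
Log2 difference, ES minus NES, with 95% interval at every tested locus of the 16 members that have several; green circles are typed protein_coding, yellow squares have no type and a red edge marks the locus used. The 5 PDE10A loci all lie above 0, and the single small PDE4D locus at the right of its pair lies below 0.

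Further genes of the family, and further loci of some members, stood outside the symbol pattern. PDE4B, a cAMP phosphodiesterase, lay in a locus joined with an unnamed gene and measured 85.96 to 117 CPM in ES (median 101) and 70.04 to 119.9 CPM in NES (median 86.2), a log2 difference of 0.16 ± 0.13 (edgeR adjusted p = 0.572). PDE8B, listed under its Ensembl identifier, differed by -0.55 ± 0.22 at its protein_coding locus (edgeR adjusted p = 0.255), with 4 of 6 ES libraries below all NES libraries. PDE4A and AKAP11, listed likewise, differed by 0.23 and 0.20. The cyclase ADCY4 shared a locus with RIPK3 (0.45 ± 0.19), AKAP8 with AKAP8L (-0.065 ± 0.081) and RGS12 with HGFAC (-0.29 ± 0.11, each log2 ± SE). PRKAR2A shared one with IP6K2 (0.27 ± 0.16), PDE8A with ALPK3 and an unnamed gene (0.32 ± 0.11) and CREB1 with KLF7 (0.31 ± 0.23). These values cannot be assigned to a single gene. None of these loci passed the edgeR test. PDE4C, PDE11A and RGS11 were below the minimum level.

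Around the members, 91 partner genes in 9 lists were read from the same edgeR fit, and 1 passed, where 0.945% of all loci did. PTGER4 (MSTRG.9581, chromosome 16, 25670862 to 25686551, plus strand), a Gs-coupled receptor for prostaglandin E2, rose in ES and measured 6.76 to 15.8 CPM in ES (median 8.801) and 2.73 to 4.69 CPM in NES (median 3.48), with no overlap between the groups. Its log2 difference was 1.42 ± 0.23 (95% interval 0.93 to 1.91; edgeR adjusted p = 0.0337). It passed in 4 of 12 fits that left out 1 library, with adjusted p from 0.00792 to 0.0978, the exceptions being those without ES2, ES4, ES6 and each of NES1 to NES5. Without ES3 and ES6 together its log2 difference was 1.16 (edgeR adjusted p = 0.101). At an unadjusted p under 0.05 there were 26 of 91 partners (22 higher and 4 lower), against 16.3% of all loci (9.5% higher and 6.79% lower). The higher ones include AREG, PTGS2 and ADRB1, which reached the minimum level only through ES. DESeq2 called 9 partners, all higher in ES and PTGER4, ADRB1, ADRA2A, PTGER3, GNG2, STAR and CYP11A1 among them, and gave no adjusted p for 3, where 5.22% of all loci passed.

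By role, the Gs-coupled receptors held the largest share of small p-values. Of 8 that reached the minimum level, from 23 listed, 4 had an unadjusted p under 0.05 with higher values in ES, against 9.5% of all loci. With lower values there was 1, against 6.79%. This was the FSH receptor FSHR, which the selection rule did not pick. It measured 9.33 to 55.1 CPM in ES (median 26.7) and 41.7 to 97.8 CPM in NES (median 64.9). FSHR differed by -1.17 ± 0.43 in log2 (edgeR adjusted p = 0.216), with 4 ES libraries below all NES libraries. FSHR is also a granulosa marker, and the part of these cells was not tested. ADRB1, the beta-1 adrenoceptor, measured 0.787 to 10.5 CPM in ES (median 1.73) and 0.185 to 1.495 CPM in NES (median 0.555), with ES4 far above the rest (log2 2.33 ± 0.65; edgeR adjusted p = 0.111), and the difference was 1.45 without ES4. ADRB1 reached the minimum only through ES, at a mean of 1.58 FPKM in ES against 0.331 in NES. The filter could thus admit it only with higher values in ES. Of 6 Gi-coupled receptors, from 17 listed, 2 had an unadjusted p under 0.05, against 16.3% of all loci. ADRA2A, the alpha-2A adrenoceptor, measured 1.41 to 3.54 CPM in ES (median 2.35) and 0.368 to 1.77 CPM in NES (median 0.773) (edgeR adjusted p = 0.107), and the prostaglandin receptor PTGER3 2.53 to 8.89 CPM in ES (median 5.92) and 1.304 to 3.82 CPM in NES (median 3.05) (edgeR adjusted p = 0.145). ADRA2A lay above all NES libraries in 4 ES libraries and PTGER3 in 5, so in both the groups overlapped.

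Among 12 G protein subunits, GNG2 and GNB5 had an unadjusted edgeR p under 0.05 (16.7%, against 16.3% of all loci). GNG2 measured 9.38 to 43.4 CPM in ES (median 14.4) and 7.25 to 10.0 CPM in NES (median 8.82), highest in ES3, and GNB5, the partner of R7 RGS proteins, 25.5 to 38.3 CPM in ES (median 31.7) and 22.4 to 29.4 CPM in NES (median 26.3). Of 10 receptor kinases, arrestins and related regulators, 3 had an unadjusted p under 0.05 (30.0%, against 16.3% of all loci). Among them, the kinase GRK5 measured 259 to 1150.0 CPM in ES (median 637) and 289 to 611 CPM in NES (median 352). GPSM3, a regulator of Gi known from immune cells, measured 1.41 to 7.198 CPM in ES (median 1.47) and 0.858 to 1.65 CPM in NES (median 1.18). ES3 was highest for GPSM3 and lowest for GRK5. The PKA inhibitors and other effectors numbered 8, of which RAPGEF1 and RAP1B had an unadjusted p under 0.05 (25.0%, against 16.3% of all loci). RAPGEF1 differed by 0.31 ± 0.097 in log2. RAP1B, the small GTPase that EPACs load, differed by 0.31 ± 0.13, and by 0.17 without ES3. Of 14 CREB coactivators and related factors none had an unadjusted p under 0.05. Their smallest edgeR adjusted p, 0.360 for CREB3, belonged to a log2 difference of 0.36 ± 0.19. ATF4 came next with 0.36 ± 0.19, and 0.15 without ES1.

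Genes known to be induced by cAMP had a median log2 difference of 0.82, a value that AREG and PTGS2 raise. Of 17 measured, from 22 listed, 14 had a log2 difference above 0 and 7 an unadjusted p under 0.05, all higher in ES, and 0 passed, against 56.2% of all loci above 0, 9.5% higher at an unadjusted p under 0.05 and 0.945% passing. AREG and PTGS2, both among the 7, reached the minimum level only through ES, with NES means of 0.0135 and 0.162 FPKM. The filter could admit them only with higher values in ES, so their direction is no evidence, yet both raise these counts and the median. With AREG and PTGS2 left out, the middle value of the list is that of CITED2, 0.37. STAR, which brings cholesterol into mitochondria, measured 11.7 to 728 CPM in ES (median 266) and 27.1 to 63.8 CPM in NES (median 44.2). ES6 and ES1 were highest and ES3 lowest of all 12 libraries (log2 2.88 ± 0.74; edgeR adjusted p = 0.0843, and 0.0455 without ES3). CYP11A1, the enzyme of the first step of steroid synthesis, measured 48.96 to 1515 CPM in ES (median 169) and 36.96 to 88.7 CPM in NES (median 46.4) (log2 2.79 ± 0.73; edgeR adjusted p = 0.0894), and its difference was 1.48 without ES1, which stood alone at the top. Both genes are also luteal markers of the list above, and the part of luteal cells in them was not tested.

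In each of the libraries high for RGS2 and CREM, ES1 and ES4, another cAMP-induced gene stood apart. These genes, AREG and PTGS2, were chosen after their values were seen. In ES1 most other genes of the list also lay above all NES libraries. PGR, for example, measured 2135 CPM there, against at most 166 CPM in NES, and FOS 503.5 CPM, against at most 242.5 CPM. NR4A3 and FOSB lay inside the NES range in ES1. Other genes of the list went both ways in ES4. There NR4A1, NR4A2, FOS, FOSB, EGR1 and CYP19A1 lay below all NES libraries, while SGK1, NR4A3, CITED2 and INHA lay above them. The EGF-like ligand AREG measured 73.6 CPM in ES1 and 0.111 to 1.105 CPM in the other ES libraries, against 0.0477 to 0.269 CPM in NES, the lowest of them near the limit that 3 counts allow. PTGS2, the inducible prostaglandin synthase, measured 213 CPM in ES4 and 1.34 to 2.76 CPM in the other ES libraries, against 1.103 to 1.98 CPM in NES. Each gene was thus high in a single ES ovary, AREG in ES1 and PTGS2 in ES4, and neither passed (edgeR adjusted p = 0.0932 for AREG and 0.136 for PTGS2).

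In the remaining lists, 2 of 7 other RGS and AKAP-like genes had an unadjusted edgeR p under 0.05 (28.6%, against 16.3% of all loci). RGS7BP, which anchors R7 RGS proteins at the membrane, measured 11.9 to 28.3 CPM in ES (median 14.7) and 17.6 to 39.6 CPM in NES (median 30.1) (log2 -0.76 ± 0.24; edgeR adjusted p = 0.155), and RGS5, a pericyte gene, 183 to 489 CPM in ES (median 259) and 142 to 283 CPM in NES (median 164) (log2 0.60 ± 0.24, and 0.37 without ES1; edgeR adjusted p = 0.243 with all libraries). Of 9 genes of cGMP synthesis and kinases, 3 had an unadjusted p under 0.05 (33.3%, against 16.3% of all loci). The nitric oxide synthase NOS2 (log2 -0.61 ± 0.26; edgeR adjusted p = 0.267) and the cGMP-dependent kinase PRKG1 (log2 -0.62 ± 0.27; edgeR adjusted p = 0.271) had the smallest, both with lower values in ES.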

How the data were processed

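Ovarian total RNA of 6 ES and 6 NES gilts was examined, grouped by sample title. Libraries were strand-specific (dUTP) after removal of ribosomal RNA, per the labels' protocols. The submitters' processing notes list HISAT2, TopHat, cutadapt and FastQC with the build Sscrofa11.1; how strand was treated in counting is not given in the sources used here. Both raw counts and FPKM per locus were deposited by the authors, per the file headers. Depth was 58140547 to 68961955 counts per library, and 3 counts, the most that an absent RNA would be allowed, correspond to 0.04297 to 0.0519 CPM, for counting error only. Loci without a gene name made up 8.36% of the table.

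The edgeR quasi-likelihood test (TMM factors, no covariate) was fitted to 20421 loci whose mean FPKM reached 0.5, and p-values were adjusted by Benjamini and Hochberg's method over all of them, with calls under 0.05. The SE is the log2 difference divided by the square root of F. P-values measure the spread between gilts. The script was tested on simulated counts. The members and lists were chosen with earlier results of these data known, so they are no independent evidence. Named members were the 2 with the smallest p and the 1 with the highest FPKM of each role class, plus PDE3A, PDE4D, PRKAR2B, CREM and RGS2 (PDE4B, also in the rule, had no member locus); named partners were called genes and the 2 with the smallest p of each list. Alternatives were other filters, scalings, tests and loci, the replicate number as a block, and each library left out. No genome sequence was used here. Fits used edgeR 4.0.16, DESeq2 1.42.0 and limma 3.58.1 in R 4.3.3, and tables and plots used scipy 1.17.1, pandas 2.3.3, matplotlib 3.10.9 and numpy 2.4.6 in Python 3.11.15.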

Additional observations from a re-analysis of the deposited data

Results flagged for a closer look

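In 26 of 104 tests of a named gene in a group of 6 libraries, the highest or lowest library stood apart from the others by more than Dixon's 95% limit of 0.625 of the group's range, where chance gives about 1 in 20 and the share over all tested loci was 13.1% (17.6% in ES and 8.53% in NES). Of the 26, 8 belong to the 7 genes chosen after their values were seen, which count for 14 of the tests, and 18 of 90 to genes named by the rule. ES held 20 of the 26 and NES 6. Values are CPM, with the nearest library of the group after each.

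ES3 held the most. Among the members it was highest for ADCY7 (102 against 15.3), PDE1B (36.5 against 9.56), PDE3B (236 against 67.8), AKAP5 (12.8 against 6.11), RGS10 (18.1 against 3.61), RGS16 (14.7 against 2.47) and RGS19 (102 against 51.96), and lowest for ADCY6 (85.8 against 129). Among the partners it was highest for PTGER4 (15.8 against 10.2), GPSM3 (7.198 against 2.55) and RAP1B (495 against 337). The summed FPKM of the macrophage markers, led by LYZ, was highest in this library too, and the part of these cells was not tested.

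ES1 stood apart for the members PDE3A (514 against 249.7) and RGS4 (125 against 28.2), and for the partners ATF4 (131 against 83.9), AREG (73.6 against 1.105), RGS5 (489 against 279) and CYP11A1 (1515 against 269). The summed FPKM of the granulosa markers and that of the luteal markers were highest in ES1, and the part of these cells was not tested. ES4 was highest for PRKACB (150.0 against 61.95), ADRB1 (10.5 against 3.097) and PTGS2 (213 against 2.76).

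Within NES, NES6 was highest for ADCY3 (228 against 134), RAPGEF3 (46.8 against 27.8), PDE6D (5.28 against 4.18) and ADRB1 (1.495 against 0.632). NES1 was highest for GRK5 (611 against 373), and NES3 for AREG (0.269 against 0.1003).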

How the results depend on the processing

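Under the 26 alternatives the number of members called was 0 in every one. Among all loci, the 193 called became 28 with no filter, 295 with upper-quartile factors, 1065 with DESeq2, 337, 334 and 319 with limma at pseudocounts of 0.5, 0.1 and 1, 0 with the replicate number as a block, 1 without ES3 and ES6, and 0 to 415 with 1 library left out (0 without NES1, NES3, NES4, NES5, ES2, ES4 or ES6, 1 without NES2, 68 without ES5, 85 without ES3 and 415 without NES6). The members' median log2 difference of 0.29 became 0.25 with upper-quartile factors, 0.096, 0.076 and 0.079 with limma at those pseudocounts, 0.15 with the block, 0.17 without ES3 and ES6, 0.37 at the protein_coding loci, and 0.19 to 0.38 with 1 library left out. The partners called, 1 here, numbered 9 with DESeq2, 0 with the block, 0 without ES3 and ES6, and 0 to 2 with 1 library left out. Why the counts moved was not tested.

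Of 32 named members, 23 kept their sign in every alternative. Without ES3 and ES6 the sign turned for AKAP5 (-0.0084), RGS16 (-0.46), RGS10 (-0.22), PDE1B (-0.25) and RGS7 (0.039). It turned for RGS4 and PDE1B with the block (-0.035 and -0.020) and with limma at a pseudocount of 0.1 (-0.040 and -0.045), and for PDE4D at its locus with the highest FPKM (-0.20). With 1 library left out the values ran from -0.20 to 0.082 for AKAP7, -0.35 to 0.14 for PRKAR2B, -0.41 to 0.90 for RGS16, -0.32 to 0.69 for RGS10, -0.38 to 0.54 for PDE1B and -0.48 to 0.94 for RGS4. None of these differences had passed, and the cause was not tested.

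The replicate numbers of the titles were not used as pairs. The labels do not say that they mark litters, and the correlation of same-numbered libraries' deviations ran from -0.028 to 0.24, with numbers 1, 2 and 5 correlating best with their own number. With the replicate block PTGER4 had an adjusted p of 0.0834. At this depth every member lay above the limit that 3 counts allow, in every library except the PDE3B locus listed at 0 in ES1.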
